A study of Mus musculus with 6 samples.

Results

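Levels of 10 antioxidant genes were compared between bone marrow stromal cells cultured with and without melanin-concentrating hormone (MCH). The set holds 8 enzyme genes commonly counted among targets of the transcription factor NRF2 (Nqo1, Hmox1, Gclm, Gclc, Srxn1, Txnrd1, Prdx1 and Gstm1) and the selenoprotein genes Gpx3 and Selenop. Txnrd1 belongs to both kinds, since its product also contains selenocysteine. They were taken by gene name from a table of 19353 genes. All 10 had a row, and 9 of them were among the 13662 genes with enough counts to be tested. Gpx3 was the one below that filter. Selenop was chosen by its measured counts, which were lower with MCH than in Control, so its values stand here as a description with no test, whereas the other 9 genes were included for their function.

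The cells were purified primary mesenchymal stem cells from the bone marrow of wild-type mice, grown under osteogenic induction. Both groups had 10% serum with ascorbic acid at 50 µM, β-glycerophosphate at 10 mM and dexamethasone at 100 nM. The MCH group (3 libraries) also received 0.5 µM MCH, a neuropeptide best known from the hypothalamus, and the Control group (3 libraries) did not. The sampling time is day 9 in the titles but day 8 in the design text. Nothing in the labels tells whether replicates are separate animals or dishes; p-values thus reflect library-to-library spread, which may be technical. Columns of the MCH libraries carry MCH in their names, while those of the Control libraries are recognised only by its absence, and every direction below rests on these names. In the authors' deposited table, all 212 genes marked up average more in Control and all 31 marked down average more with MCH, so its marks run opposite to the direction used here.

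NRF2, encoded by Nfe2l2, is held in the cytoplasm by KEAP1, which hands it to a CUL3 ubiquitin ligase for degradation. Oxidants and electrophiles modify KEAP1, NRF2 then accumulates, pairs with small MAF proteins and binds antioxidant response elements in front of its target genes, where BACH1 can compete for the same sites. Selenoproteins are made by reading a UGA stop codon as selenocysteine, and the secreted selenoprotein P, made mainly by the liver, carries selenium to other tissues. Excess oxidants are known to hold back the maturation of bone-forming cells.

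Promoter sequence is shown for the 4 members in which at least 1 of a pair of searched motifs was found, since NRF2 acts through one of them. Windows of 250 bases before the RefSeq transcript start (GRCm38.p6) were available for 8 members, as 13 windows, and not for Hmox1 and Gclc. The motifs searched on both strands were TGACNNNGC, the core of the antioxidant response element (GCNNNGTCA on the other strand), and TGANTCA, the site of AP-1 that small MAF sites contain. The first was present in 3 of the 13 windows, 1 each of Gclm, Prdx1 and Txnrd1, against 10.2% of all 32851 windows of that length. The second was present in 2 of the 13 windows, those of Srxn1 and Prdx1, against 6.75% of all windows. Srxn1 thus held the second motif and not the first as spelled here. Its match nearest the transcript start, read on as TGAGTCAGC, differs from TGACNNNGC only by a G in place of the C before NNN. Capitals mark the matches, all sequences run 5′ to 3′ on the + strand, and a match describes the letters only.
Srxn1, chr2:152105274-152105523: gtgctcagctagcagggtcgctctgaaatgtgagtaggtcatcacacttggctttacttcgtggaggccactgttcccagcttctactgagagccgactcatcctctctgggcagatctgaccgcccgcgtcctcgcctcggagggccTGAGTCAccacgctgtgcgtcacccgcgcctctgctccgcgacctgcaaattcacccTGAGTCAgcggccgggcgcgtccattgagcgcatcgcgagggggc
Prdx1, chr4:116685349-116685598: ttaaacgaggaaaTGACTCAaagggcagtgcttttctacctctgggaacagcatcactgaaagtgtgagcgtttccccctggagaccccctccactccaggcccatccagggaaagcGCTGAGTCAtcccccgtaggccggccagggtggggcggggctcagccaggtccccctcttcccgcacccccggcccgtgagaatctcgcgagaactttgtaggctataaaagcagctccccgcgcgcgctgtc
Txnrd1, chr10:82858956-82859205: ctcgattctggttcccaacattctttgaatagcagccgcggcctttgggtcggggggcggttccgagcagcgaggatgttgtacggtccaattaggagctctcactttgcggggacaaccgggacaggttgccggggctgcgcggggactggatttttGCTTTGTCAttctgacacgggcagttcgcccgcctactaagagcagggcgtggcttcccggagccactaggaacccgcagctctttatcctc
Gclm, chr3:122245307-122245556: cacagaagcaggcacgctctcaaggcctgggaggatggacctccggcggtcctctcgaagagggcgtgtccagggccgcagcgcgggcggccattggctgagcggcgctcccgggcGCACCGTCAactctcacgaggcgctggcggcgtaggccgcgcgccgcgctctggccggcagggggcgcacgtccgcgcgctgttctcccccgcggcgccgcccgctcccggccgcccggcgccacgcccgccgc
In Srxn1 the matches began 102 and 45 bases before the transcript start. In Prdx1 the TGACNNNGC match at 133 bases overlapped a TGANTCA match at 131, and another TGANTCA match lay at 237. Txnrd1 had its match 92 bases before this start, 1 of its 3 annotated starts, and Gclm had its match at 134. The windows of Nqo1, Gstm1, Gpx3 and Selenop held neither set of letters.

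The selenocysteine codons of the 3 selenoprotein members are shown because their number sets Selenop apart. The GENCODE M21 annotation marks 10 such codons in Selenop and 1 each in Gpx3 and Txnrd1. Of 24 annotated mouse selenoprotein genes, 22 have 1. The recoded TGA stands in capitals with 12 bases of transcript sequence on each side, on the + strand of GRCm38. Codon 9 of Selenop lies in the same stretch as codon 10, so both are capitalised.
Gpx3, codon at chr11:54907256-54907258: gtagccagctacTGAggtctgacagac
Txnrd1, codon at chr10:82896037-82896039: cagtctggctgcTGAggttaagcccca
Selenop, codon 1 at chr15:3274848-3274850: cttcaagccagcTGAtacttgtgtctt
Selenop, codon 10 at chr15:3279696-3279698: aggaagTGAaaaTGAcattcaaactaa

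Libraries held 16755247 to 18090083 counts in the MCH group and 16521980 to 18803949 in the Control group. Markers of mesenchymal stromal cells summed to 82750 to 84970 counts in MCH libraries and 109176 to 124628 in Control libraries. Most of these counts came from Col1a1 (64369 to 95948 over the 6 libraries), while Lepr (5 to 20) and Thy1 (36 to 59) were low. In edgeR's test 5 of the 10 markers (Pdgfra, Pdgfrb, Nt5e, Ly6a and Col1a1) were lower with MCH, against 5.4% of all tested genes. Prrx1, Thy1, Eng, Cxcl12 and Lepr did not pass, with log2 fold changes below 0 except in Eng (0.04). Of 3 tested osteoblast markers, 2 were lower with MCH in edgeR's test: Spp1 (8629 to 19727 counts over the 6 libraries; log2 fold change -1.06, adjusted p = 0.000175) and Alpl (243 to 712 counts; -1.28, adjusted p = 0.000335). Runx2 had 783 to 1111 counts and did not pass, and Sp7 (3 to 4) and Bglap (0 to 3) were barely detected. Macrophage markers summed to 865 to 1548 counts in MCH libraries and 734 to 905 in Control libraries, with 0 of 5 tested markers past the threshold. Cd68 had 549 to 934 counts, Mrc1 51 to 132 and Lyz2 52 to 176, while Ptprc (0 to 2) and C1qa (0 to 3) were at or near 0. MCH replicate 3 stood apart in this list, with 50 counts of Adgre1, 92 of Ctss, 31 of C1qb and 27 of C1qc, where MCH replicates 1 and 2 had at most 9 of any of them and Control libraries at most 23. The part of these markers in the results was not tested. Hepatocyte markers summed to 2 to 10 counts in MCH libraries and 1 to 3 in Control libraries, with none tested. Adipocyte markers summed to 1869 to 2331 counts in MCH libraries and 1977 to 2324 in Control libraries, mostly from Lpl (808 to 1323) and Fabp4 (735 to 1215). Lpl was the 1 of 3 tested that was higher with MCH (log2 fold change 0.43, edgeR adjusted p = 0.0344), against 3.64% of all tested genes. Fabp4 (-0.35) and Pparg (-0.14) had log2 fold changes below 0 and did not pass. Adipoq (0 to 3) and Plin1 (0 to 2) were near 0. In bulk RNA, fewer cells of a type and less RNA per cell cannot be told apart.

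None of the 8 tested members chosen for function passed the test between MCH and Control. By edgeR's quasi-likelihood test with Benjamini-Hochberg adjustment at 0.05, 0 were higher and 0 lower, where 3.64% of all tested genes were higher with MCH and 5.4% were lower. DESeq2, limma-voom and limma on log2(FPKM + 1) also called 0. At an unadjusted p under 0.05 there was 1, Prdx1. Log2 fold changes, MCH minus Control throughout, were above 0 in 5 and below 0 in 3, with a median of 0.06 against 0.00 over all tested genes. The 95% intervals of all 8 lay within 1.5-fold either way, from 0.670-fold to 1.38-fold. The groups did not overlap in 3 of the 8, against 32.8% of all tested genes. In the authors' deposited table the lowest q-value of the 8 is 0.447, that of Prdx1.

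**Figure D1:**
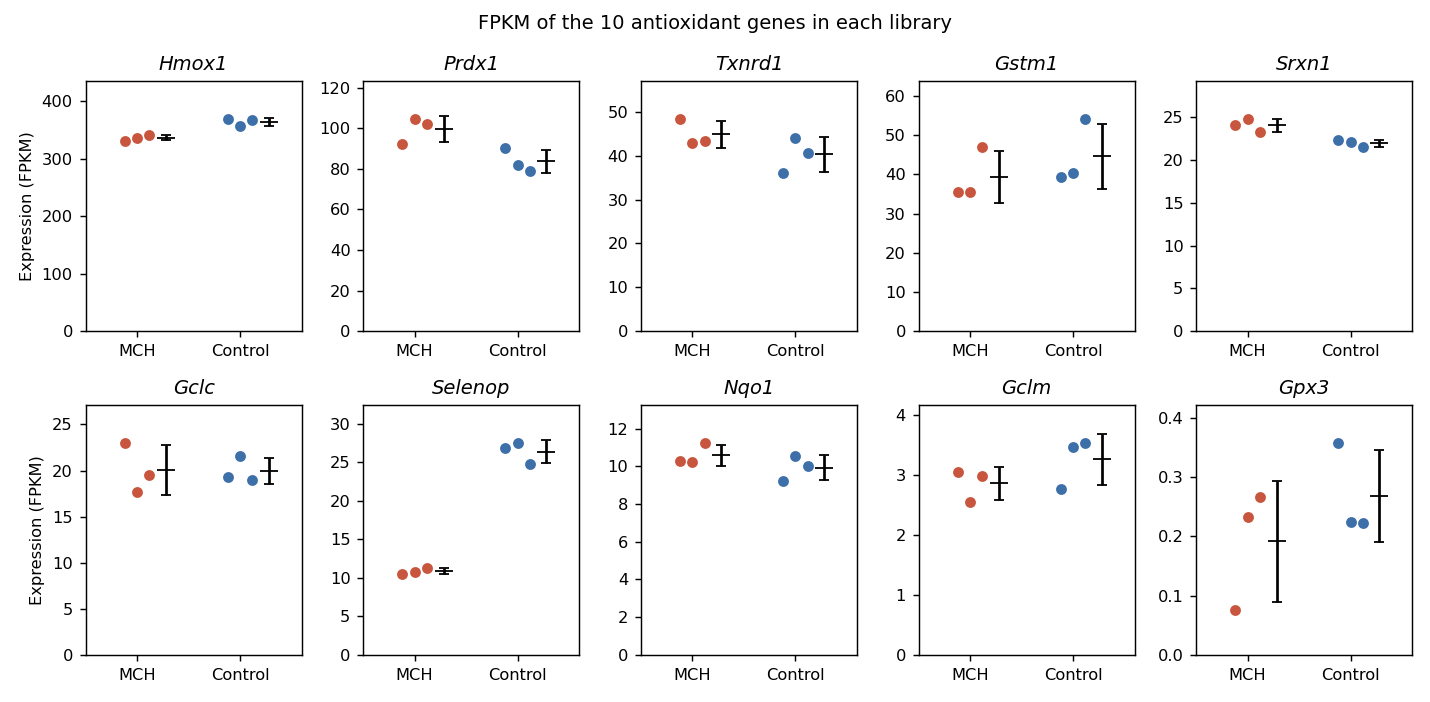
FPKM of the 10 genes, 1 panel each with its own axis from 0, for the 3 MCH libraries (left) and the 3 Control libraries (right); points are libraries. Selenop lies between 10.5 and 11.3 FPKM with MCH and between 24.8 and 27.5 FPKM in Control, while most other panels show groups close together.

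Expression per length, in the authors' FPKM, spanned from Hmox1, the 135th most abundant of all genes by mean FPKM, to Gpx3, the 13482nd. Hmox1 averaged 336 ± 4.46 FPKM with MCH and 364 ± 6.48 FPKM in Control (SD, n = 3 each). Prdx1 came next with 99.6 ± 6.44 FPKM with MCH and 83.7 ± 5.85 FPKM in Control. Txnrd1 (44.8 ± 3.02 with MCH, 40.3 ± 4.02 in Control) and Gstm1 (39.4 ± 6.63 with MCH, 44.6 ± 8.23 in Control) followed, and this pair of neighbours did not differ beyond the spread. Srxn1 and Gclc came after them at 24.0 ± 0.724 and 20.1 ± 2.71 FPKM with MCH, and at 22.0 ± 0.420 and 20.0 ± 1.41 FPKM in Control. Nqo1 lay between 9.24 and 11.2 FPKM, Gclm between 2.54 and 3.53 and Gpx3 between 0.0755 and 0.357. Selenop averaged 10.9 ± 0.404 FPKM with MCH and 26.4 ± 1.44 FPKM in Control. In the MCH libraries it overlapped Nqo1, and in Control it stood above both Srxn1 and Gclc.

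Among the direct oxidant-handling enzymes, Hmox1 (chr8:75093591-75100596, +) encodes haem oxygenase 1, which breaks haem into biliverdin, iron and carbon monoxide. Its level was 903, 952 and 953 CPM (counts scaled to library size by TMM) in the MCH libraries, against 1037, 972 and 1009 CPM in Control. Every MCH library lay below every Control library, by a small margin. The log2 fold change was -0.10 ± 0.06 (SE; 95% interval -0.25 to 0.04), with an adjusted p of 0.332 in edgeR's quasi-likelihood test. Nqo1 (chr8:107388225-107403206, -), a quinone reductase that uses NADPH or NADH, had 15.7, 16.2 and 17.6 CPM with MCH, against 14.6, 16.1 and 15.4 CPM in Control. The groups overlapped, and the log2 fold change was 0.10 ± 0.10 (95% interval -0.13 to 0.33; edgeR adjusted p = 0.552).

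In the thioredoxin branch, Prdx1 (chr4:116685544-116700822, +) encodes a peroxiredoxin that reduces hydrogen peroxide. It had 371, 436 and 422 CPM in the MCH libraries, against 374, 329 and 321 CPM in Control. MCH replicate 1 lay below Control replicate 1, and the other MCH libraries lay above all Control libraries. Its log2 fold change was 0.26 ± 0.09 (95% interval 0.06 to 0.47), with an unadjusted p of 0.0175 and an adjusted p of 0.104 in edgeR's test. Without MCH replicate 1 the adjusted p was 0.0432 (0.0432 to 0.283 over all alternatives), the only setting among 16 in which a member chosen for function was called.

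Txnrd1 (chr10:82859206-82897724, +), the cytosolic selenoenzyme that returns electrons from NADPH to thioredoxin, had 162, 149.5 and 149.7 CPM with MCH, against 125, 148 and 138 CPM in Control. The groups did not overlap in CPM, though they did in FPKM, and the log2 fold change was 0.17 ± 0.08 (95% interval -0.01 to 0.34; edgeR adjusted p = 0.212). Srxn1 (chr2:152105516-152111376, +), whose product repairs over-oxidised peroxiredoxins, had 85.8, 91.8 and 85.6 CPM with MCH, against 82.2, 79.0 and 77.5 CPM in Control. All MCH libraries lay above all Control libraries, and the log2 fold change was 0.14 ± 0.06 (95% interval -0.0038 to 0.29; edgeR adjusted p = 0.197). Each of these genes with a thioredoxin role thus had a positive fold change that did not pass the adjusted threshold.

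For glutathione, Gclc (chr9:77754535-77794485, +) encodes the catalytic subunit of glutamate-cysteine ligase, the first and rate-limiting enzyme of glutathione synthesis. It had 77.4, 61.7 and 67.5 CPM with MCH, against 67.2, 72.7 and 64.6 CPM in Control. MCH replicate 1 was the highest and MCH replicate 2 the lowest of all 6, and the log2 fold change was 0.01 ± 0.10 (95% interval -0.21 to 0.24; edgeR adjusted p = 0.943). Gclm (chr3:122245557-122270732, +), the modifier subunit, had 24.8, 21.5 and 24.9 CPM with MCH, against 23.2, 28.2 and 29.0 CPM in Control. The groups overlapped through Control replicate 1, and the log2 fold change was -0.18 ± 0.11 (95% interval -0.44 to 0.09; edgeR adjusted p = 0.360). Per length, the ratio of Gclc to Gclm FPKM was 7.02 ± 0.494 with MCH and 6.20 ± 0.808 in Control (SD, n = 3 each), within the spread of each other.

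Gstm1 (chr3:108012255-108017973, -), a mu-class glutathione S-transferase, had 100.2, 104 and 136 CPM with MCH, against 115, 114 and 154 CPM in Control. Replicate 3 was the highest library in both groups. The log2 fold change was -0.17 ± 0.17 (95% interval -0.58 to 0.24; edgeR adjusted p = 0.577). Its neighbours in the gene family did not share the high replicate 3 in Control: Gstm2 had 90.0, 95.4 and 98.6 FPKM with MCH and 96.2, 91.2 and 93.3 in Control, and Gstm5 had 43.0, 49.3 and 54.7 FPKM with MCH and 52.1, 45.2 and 47.4 in Control. Members of this family are similar in sequence, so reads could be split between them and the values of Gstm1 are uncertain to that extent, as are those of Prdx1, which has processed pseudogenes.

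Of the selenoprotein members, Gpx3 (chr11:54902453-54910377, +), the secreted plasma glutathione peroxidase, was barely detected. It had 3, 10 and 11 counts in the MCH libraries, against 14, 10 and 9 counts in Control, or 24 against 33 counts in sum. The groups overlapped, and no difference was detectable at this depth. In the 5 settings that kept it, its log2 fold change ran from -0.62 to -0.07 and its adjusted p from 0.626 to 0.937.

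Selenop (chr15:3268547-3280508, +, listed under its older name Sepp1), the selenium carrier and the gene chosen for its lower level, had 53.9, 57.5 and 59.6 CPM with MCH, against 142, 141 and 128 CPM in Control. The MCH libraries lay far below the Control libraries, with no overlap (groups did not overlap in 32.8% of all tested genes), and replicates within a group were close. The log2 fold change was -1.27, a level 58.5% lower with MCH, and it was the 174th lowest of the 13662 genes. Because Selenop was chosen for this fall, these values describe it and carry no test. Across the 16 other settings the log2 fold change ran from -1.31 to -1.21. Marker sums of stromal cells (above) and osteoblasts (9736 to 9896 with MCH, 18553 to 21555 in Control) were lower with MCH in the same libraries. These sums came mostly from Col1a1 and Spp1. Called lower were 5 of 10 stromal and 2 of 3 tested osteoblast markers. The part of these markers in the Selenop difference was not tested. Hepatocyte markers were near 0 in both groups, with Alb at 0 to 4 counts.

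**Figure D2:**
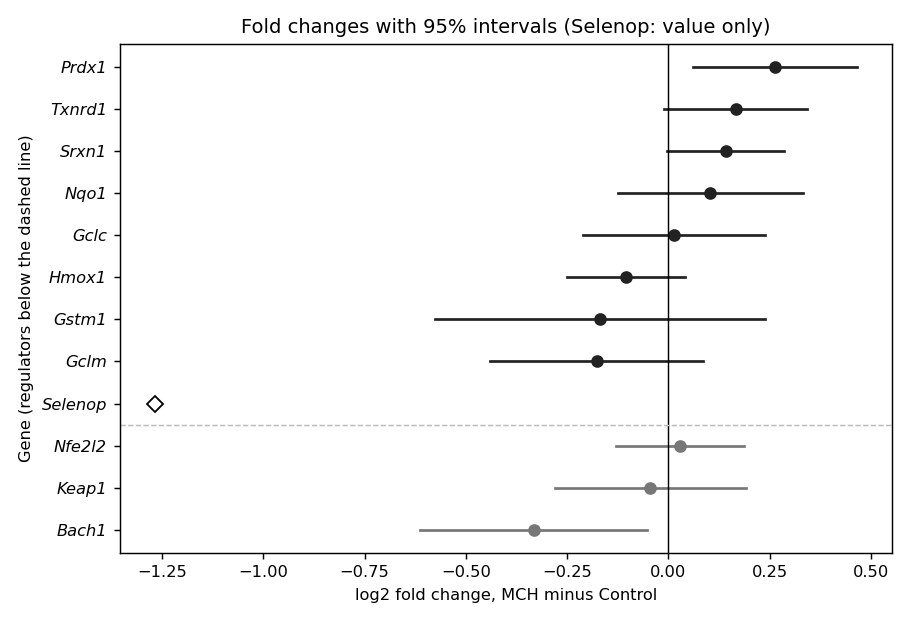
Log2 fold change, MCH minus Control, with 95% intervals from edgeR for the 8 tested members chosen for function and, below the dashed line, for the regulators Nfe2l2, Keap1 and Bach1; Selenop is an open diamond without interval. Among the 8 members only the interval of Prdx1 leaves out 0, and Selenop lies at -1.27.

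The regulators of NRF2 did not pass the test either. Of 12 regulator genes tested, edgeR called 0 higher and 0 lower (median log2 fold change -0.07), with 1 higher and 2 lower at an unadjusted p under 0.05, while DESeq2 called 1, Cul3, and limma-voom called 0. Nfe2l2 itself had 120 ± 3.67 CPM with MCH and 117 ± 8.31 CPM in Control (SD, n = 3 each), a log2 fold change of 0.03 ± 0.07 (edgeR adjusted p = 0.826). Keap1 had 82.1 ± 1.87 CPM with MCH and 84.7 ± 11.6 CPM in Control (-0.04 ± 0.10; edgeR adjusted p = 0.818). For Cul3, the ligase scaffold, the values were 97.6, 128 and 128 CPM with MCH and 85.0, 95.6 and 90.7 CPM in Control (0.38 ± 0.11; edgeR adjusted p = 0.0756). Without MCH replicate 1 Cul3 was called (adjusted p = 0.00921, against up to 0.223 without another library), which moves the regulator count to 1. Bach1, the repressor, had 15.1 ± 1.74 CPM with MCH and 19.0 ± 1.76 CPM in Control (-0.33 ± 0.12; edgeR adjusted p = 0.129). Mafg, a small MAF partner, had a log2 fold change of -0.23 ± 0.08 (edgeR adjusted p = 0.111), and Rbx1, the RING subunit of the CUL3 ligase, one of 0.19 ± 0.09 (0.231). Nfe2l1, a relative of NRF2, was uneven, with 698, 412 and 471 counts with MCH and 487, 960 and 6390 counts in Control, Control replicate 3 standing far above the rest (edgeR adjusted p = 0.285). Transcript levels do not report the amount or location of the NRF2 protein.

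Further antioxidant genes were grouped in 12 lists, of which 143 distinct genes were tested beside the members. Of these, 13 were higher and 10 lower with MCH in edgeR's test, or 16.1% in either direction against 9.04% of all tested genes. Their median log2 fold change was 0.03. The lists were chosen with earlier results of these data known, so the gap between these shares describes the lists and tests nothing. The number of higher calls varied with the libraries used: it was 16 without MCH replicate 1, 4 without MCH replicate 2, 0 without MCH replicate 3, 9 without Control replicate 1 and 1 without Control replicate 2 or 3. Lower calls numbered 8 to 11. Of the 23 genes called, 8 were called whichever library was left out, and all 8 were lower with MCH: Aldh3a1, Gstt1, Mgst1, Mgst2, Idh1, Sod3, Lrp1 and Xdh. The rises described next did not hold in all of those fits. Over all tested genes the same fits gave 65 to 722 higher and 256 to 867 lower calls, against 497 and 738 with all libraries. How many of all tested genes were called in every such fit was not counted.

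**Figure D3:**
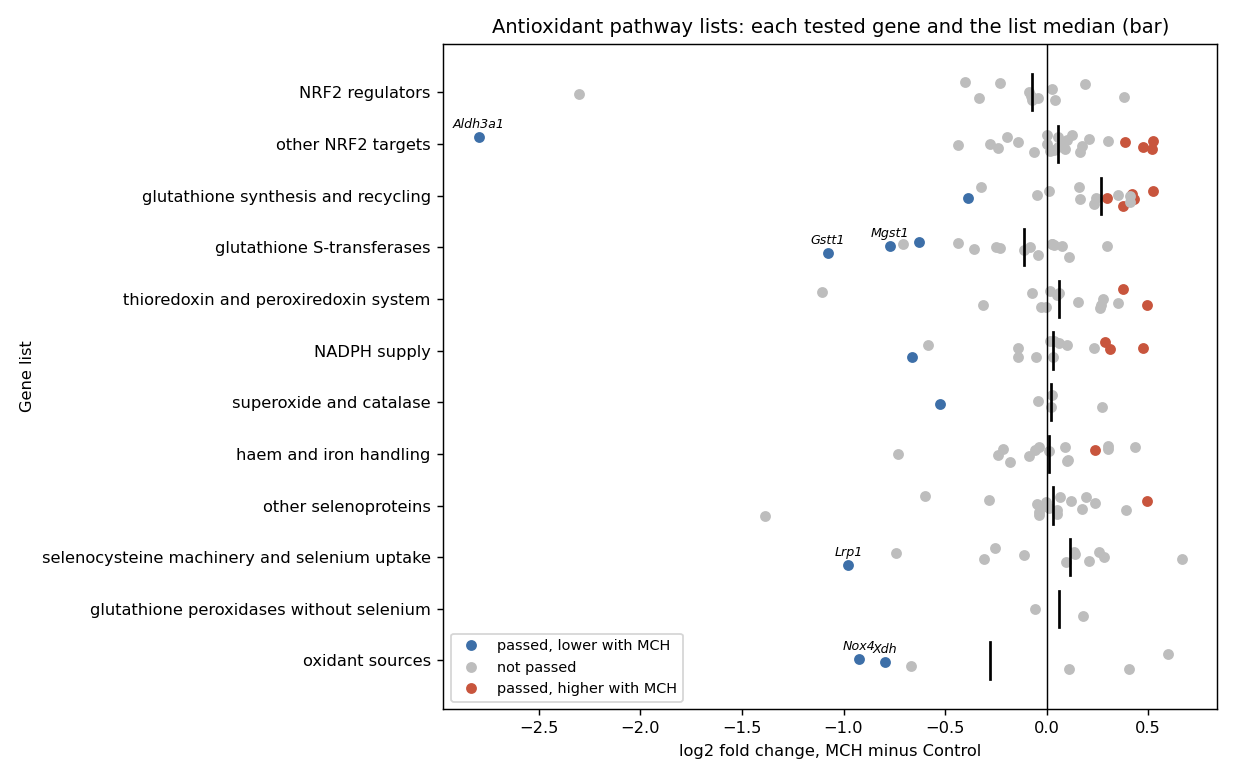
Log2 fold change, MCH minus Control, of each tested gene in the 12 pathway lists, coloured by whether it passed the adjusted threshold of 0.05 as higher, as lower or not; the bar is the list's median. Most points cluster around 0, among genes that passed the largest falls belong to Aldh3a1, Gstt1, Lrp1 and Nox4, and the glutathione synthesis list has the highest median, 0.27.

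Among 25 other NRF2 targets, 4 were higher and 1 lower (median 0.06), against 3.64% higher and 5.4% lower over all tested genes. The same shares stand beside the counts of each list below. Aldh3a1, an aldehyde dehydrogenase, fell to 9.39, 12.1 and 11.5 CPM with MCH, against 79.4, 73.1 and 77.0 CPM in Control. Its log2 fold change was -2.80 ± 0.11 (edgeR adjusted p = 6.01e-05). Ephx1, an epoxide hydrolase, rose to 44.5 ± 1.67 CPM with MCH, against 31.1 ± 2.62 CPM in Control (0.52 ± 0.09; edgeR adjusted p = 0.0136). Esd, an esterase that completes formaldehyde removal by glutathione, had a log2 fold change of 0.39 ± 0.07 (edgeR adjusted p = 0.0146). Slc7a11, the cystine importer, rose to 29.6, 25.6 and 25.9 CPM with MCH, against 19.8, 19.3 and 17.2 CPM in Control (0.53 ± 0.10; edgeR adjusted p = 0.0207). Without a single library the calls of Ephx1 and Esd held in 2 of 6 fits each and that of Slc7a11 in 3 of 6. The call of Slc7a11 was also lost in limma on FPKM.

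In glutathione synthesis and recycling, 5 of 16 tested genes were higher and 1 lower (median 0.27), against 3.64% and 5.4% of all tested genes. Slc3a2, the partner chain of Slc7a11 that also serves other amino acid carriers, rose to 514, 570.1 and 557 CPM with MCH, against 410.0, 414 and 402 CPM in Control (0.42 ± 0.06; edgeR adjusted p = 0.00901), a call kept in 5 of 6 fits. The other rises were in Slc7a11, in Chac1 (0.38 ± 0.08; edgeR adjusted p = 0.0285), whose product degrades glutathione rather than making it, and in Glrx3 and Glrx5, glutaredoxins that work on iron-sulfur proteins. Glrx, the cytosolic glutaredoxin, fell to 52.9 ± 4.41 CPM with MCH, against 69.3 ± 2.33 CPM in Control (-0.39 ± 0.08; edgeR adjusted p = 0.0288). The calls of Chac1 and Glrx held in 1 of 6 fits each.

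Glutathione S-transferases moved only downward among those called, with 0 of 17 tested higher and 3 lower (median -0.11; 0 higher at an unadjusted p under 0.05 and 0 by DESeq2, limma-voom or limma on FPKM). Gstt1, a theta-class enzyme, fell to 18.1, 25.5 and 19.4 CPM with MCH, against 47.8, 42.8 and 42.6 CPM in Control (-1.08 ± 0.13; edgeR adjusted p = 0.00433). The membrane-bound Mgst1 fell to 77.7, 67.6 and 59.7 CPM with MCH, against 121, 103 and 126 CPM in Control (-0.77 ± 0.11; edgeR adjusted p = 0.00901). Mgst2 fell to 32.2 ± 2.60 CPM with MCH, against 49.8 ± 4.19 CPM in Control (-0.63 ± 0.10; edgeR adjusted p = 0.00954). Gstm7, a mu-class enzyme with 25 to 57 counts, did not pass (-0.71 ± 0.25; edgeR adjusted p = 0.115).

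In the thioredoxin and peroxiredoxin list, 2 of 15 were higher and 0 lower by edgeR (median 0.06; 2 lower at an unadjusted p under 0.05, 1 by DESeq2 and 0 by limma-voom). Txnrd3, a thioredoxin and glutathione reductase with selenocysteine, rose to 32.3, 30.5 and 33.4 CPM with MCH, against 23.8, 21.9 and 22.5 CPM in Control (0.50 ± 0.08; edgeR adjusted p = 0.0122). Txnl1, a thioredoxin-like protein of the proteasome, had a log2 fold change of 0.38 ± 0.07 (edgeR adjusted p = 0.0158). Txnip, which binds and inhibits thioredoxin, had 421, 224 and 239 CPM with MCH, against 633, 654 and 613 CPM in Control. MCH replicate 1 stood between the other MCH libraries and Control. The adjusted p was 0.0667 in edgeR's test, so the log2 fold change of -1.10 was not called. Txnip was called without MCH replicate 1. With all libraries kept, it was also called in 4 of the other 10 alternatives: DESeq2, edgeR's non-robust fit and both fits of limma on FPKM. Prdx3, the mitochondrial peroxiredoxin, did not pass (0.27 ± 0.08; edgeR adjusted p = 0.0698). Single libraries also decided the rises: those of Txnrd3 and Txnl1 were called in 3 and 2 of the 6 fits without 1 library.

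For NADPH supply, 3 of 14 were higher and 1 lower (median 0.03), against 3.64% and 5.4% of all tested genes. Idh1, the cytosolic isocitrate dehydrogenase, fell to 28.5 ± 2.47 CPM with MCH, against 45.2 ± 3.27 CPM in Control (-0.66 ± 0.10; edgeR adjusted p = 0.0079). Taldo1 of the pentose phosphate pathway (0.48 ± 0.09; edgeR adjusted p = 0.0217) and the folate enzymes Mthfd2 (0.29 ± 0.06; 0.0291) and Mthfd1 (0.31 ± 0.07; 0.035) rose, with calls kept in 2, 2 and 1 of the 6 fits without 1 library. Of the superoxide dismutases and catalase, 0 of 5 were higher by edgeR, at an unadjusted p under 0.05 or by DESeq2, and 1 was lower: extracellular Sod3 fell to 124, 135 and 129.8 CPM with MCH, against 189.8, 179 and 191 CPM in Control (-0.53 ± 0.06; edgeR adjusted p = 0.00311). Cytosolic Sod1 (0.27; edgeR adjusted p = 0.207), mitochondrial Sod2 (-0.04; 0.737), the copper chaperone Ccs (0.03; 0.838) and Cat (0.02; 0.876) did not pass. Of 15 haem and iron genes, 1 was higher and 0 lower by edgeR (1 lower at an unadjusted p under 0.05, 0 by DESeq2), the transferrin receptor Tfrc (0.24 ± 0.06; edgeR adjusted p = 0.0464), which was called in 0 of the 6 fits without 1 library and in 4 of the other 10 alternatives. Alas1, the first enzyme of haem synthesis (-0.21; edgeR adjusted p = 0.106), Hmox2, the constitutive haem oxygenase (0.30; 0.201), and Slc40a1, the iron exporter (-0.73; 0.210), did not pass.

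Among 6 tested oxidant sources, 2 were lower and 0 higher (median -0.28; 1 higher at an unadjusted p under 0.05, 0 by DESeq2). Xdh, the xanthine dehydrogenase that can also act as an oxidase, fell to 334, 299 and 303 CPM with MCH, against 514, 556 and 556 CPM in Control (-0.80 ± 0.07; edgeR adjusted p = 0.00103). Nox4, an NADPH oxidase that makes hydrogen peroxide, fell to 4.25 ± 0.483 CPM with MCH, against 8.06 ± 1.89 CPM in Control (-0.92 ± 0.20; edgeR adjusted p = 0.0335), a call kept in 2 of 6 fits and lost in limma on FPKM. Noxo1, an NADPH oxidase organiser (0.40 ± 0.12; edgeR adjusted p = 0.082), and Duox1, a dual oxidase (-0.67 ± 0.38; 0.301), did not pass. The stromal marker sums above, mostly counts of Col1a1, moved in the same direction as Xdh and Nox4. The part of these markers in those differences was not tested.

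Selenop was compared with the other selenoprotein genes, of which 18 beside the 3 members were tested; Gpx2, Dio1 and Selenov are not analysed here. Txnrd3 was the 1 called, as higher; 0 were lower by edgeR (median 0.03), with 1 lower at an unadjusted p under 0.05, Dio2, and 0 by DESeq2. Dio2, the deiodinase that activates thyroid hormone, had a log2 fold change of -1.39 ± 0.41 with means of 0.710 CPM under MCH and 1.87 CPM in Control (edgeR adjusted p = 0.0781). By mean FPKM, Selenop ranked 16th of the 21 measured selenoprotein genes with MCH and 11th in Control. Sephs2, which makes the selenium donor (0.24 ± 0.08; edgeR adjusted p = 0.0983), and Selenot of the endoplasmic reticulum (0.19 ± 0.07; 0.116) did not pass. The intracellular peroxidase Gpx4 had 224 ± 23.9 CPM with MCH and 198 ± 16.7 CPM in Control (0.18 ± 0.10; edgeR adjusted p = 0.285). Gpx1 was uneven between replicates, with 341, 125 and 320 CPM with MCH and 449, 42.2 and 108 CPM in Control, and its difference lies within that spread (0.39 ± 1.00; edgeR adjusted p = 0.843).

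**Figure D4:**
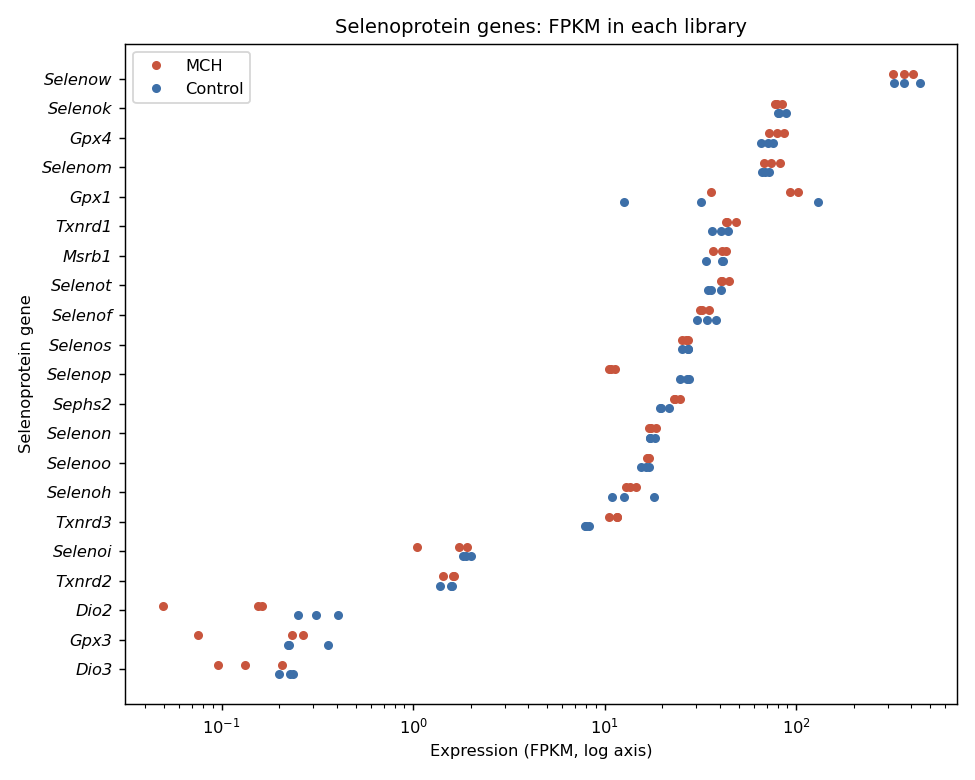
FPKM of the 21 measured selenoprotein genes on a log axis, with the 3 MCH libraries above the 3 Control libraries for each gene. Selenop, chosen for its fall, separates by group without overlap, as do Txnrd3, Sephs2 and Dio2, whereas Gpx1 spreads widely within each group. Sephs2 and Dio2 did not pass the adjusted threshold. In CPM, groups did not overlap in 32.8% of all tested genes.

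The machinery that inserts selenocysteine and the receptors that take up selenium gave 0 higher and 1 lower of 12 by edgeR (median 0.11; 2 higher at an unadjusted p under 0.05, 1 by DESeq2 and 0 by limma-voom). The gene that fell was Lrp1, a large endocytic receptor with many ligands besides selenium carriers, at 896, 734 and 765 CPM with MCH, against 1416, 1615 and 1682 CPM in Control (-0.98 ± 0.10; edgeR adjusted p = 0.00236). Pstk, the kinase that phosphorylates the seryl-tRNA on its way to selenocysteine, had 28.2, 48.9 and 46.7 CPM with MCH, against 27.5, 25.3 and 25.1 CPM in Control (0.67 ± 0.20; edgeR adjusted p = 0.0964). It was called without MCH replicate 1 (adjusted p = 0.00245, against up to 0.244 without another library). Secisbp2l, a relative of the protein that binds the selenocysteine insertion element, had a log2 fold change of -0.26 ± 0.08 (edgeR adjusted p = 0.0927) and Secisbp2, that protein, one of 0.26 ± 0.09 (0.111), and neither passed. Sepsecs, the synthase that completes selenocysteinyl-tRNA, had 161, 222 and 17 counts with MCH against 174, 261 and 242 counts in Control, MCH replicate 3 standing far below the rest. The glutathione peroxidases without selenium, Gpx7 and Gpx8, had log2 fold changes of -0.06 and 0.18 and gave 0 of 2 past the threshold by edgeR, 0 at an unadjusted p under 0.05 and 0 by DESeq2.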

How the data were processed

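RNA of purified mouse bone marrow stromal cells under osteogenic induction was sequenced in 3 MCH and 3 Control libraries made from polyadenylated RNA, per the labels' protocols. Per the file headers, the deposited table holds the authors' read counts and FPKM for each gene and library and adds p-values and q-values that the authors computed. Per the submitters' processing notes the build is GRCm38 (mm10). What aligned and counted the reads, on which strand, and which test the authors ran is not given in the sources used here, so reads of overlapping, antisense or near-identical genes cannot be told apart.

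Gene symbols came from Ensembl IDs through GENCODE M21, which matched 19250 of 19353 IDs and changed 854 names. Counts were fitted with edgeR 4.0.16 (R 4.3.3): TMM factors, the filterByExpr filter (count at least 10, total at least 15), robust quasi-likelihood dispersion with group as the only term, two-sided tests and Benjamini-Hochberg adjustment at 0.05 over all 13662 genes kept (5691 fell below the filter). Common biological variation (BCV) was 0.174. The SE of a log2 fold change is its unshrunken size divided by the square root of the F statistic. limma 3.58.1 and DESeq2 1.42.0 served as alternatives. The procedure was tested on simulated data. Precision is limited by 3 libraries a group and, for low genes, by counting.

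The members and the pathway and marker lists were chosen with earlier results of these data known. Genes named by rule are up to 4 tested genes with the smallest p in each list, all genes of lists with 5 or fewer, and Nfe2l2, Keap1, Bach1 and Slc7a11. Glrx3, Glrx5, Gstm2, Gstm5, Gpx1, Gpx4, Nfe2l1 and Sepsecs were added after their values were seen. Promoter windows are from RefSeq on GRCm38.p6.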

Additional observations from a re-analysis of the deposited data

How the results depend on the processing

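The count of members chosen for function that passed the test was 0 in either direction in all alternatives except the fit without MCH replicate 1, so the range without 1 library was 0 to 1 higher and 0 to 0 lower. Over all genes, leaving out 1 library gave 65 to 722 higher and 256 to 867 lower calls, the lowest without MCH replicate 3 and the highest without MCH replicate 1. In the pathway lists the same fits gave 0 to 16 higher and 8 to 11 lower calls. No pairing by replicate number was seen over all tested genes. Same-numbered libraries deviated with correlations of -0.161, -0.0386 and -0.0138, and 0 of 6 libraries correlated best with their own number. These values cannot tell whether same-numbered libraries share an animal or batch, which the labels do not state. With the replicate number as a block, 28 genes were called higher and 151 lower, 0 and 5 of them in the pathway lists, and no member chosen for function was called. Other scaling, filters and tools kept the counts over all genes, over the members and over the pooled pathway lists within 1.5 times. Single lists moved by 1 call. The haem and iron gene was not called in 5 of these settings. In limma on FPKM 1 oxidant source was lost, and Slc7a11 was lost from the rises of the other NRF2 targets and of glutathione synthesis. DESeq2 added 1 call each to the NRF2 regulators, the rises of glutathione synthesis, the selenocysteine machinery and the falls of the thioredoxin list. The last also appeared in 3 other settings. No called fold change was reversed; among values near 0 the sign of Gclc differed in 4 of 16 alternatives, that of Keap1 in 2 and that of Nfe2l2 in 1. Depth limits Gpx3, with 24 counts with MCH and 33 in Control, and the spread between 3 libraries limits genes such as Gpx1.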
